A study of Mus musculus with 8 samples.

Results

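The genes described here set the transmitter that a neuron releases or clear that transmitter after release. They are 9 genes, Slc17a6, Slc17a7, Slc17a8, Gad1, Gad2, Slc32a1, Slc6a5, Slc6a9 and Slc6a11, chosen by name among the 54532 genes of the deposited table, where each has 1 row. They were measured by RNA-seq in injured spinal cord of mice, 7 days after the injury. The control group is 4 samples of Tia1f/f mice, in which Tia1 is flanked by recombination sites and no Cre is named. The CKO group is 4 samples of Tia1Nestin-CKO mice, named as a conditional knockout under Nestin, which is active in the progenitors of neurons and glia. The sources used here do not give age, sex, strain, the kind of injury or the Cre line. Libraries are called control 1 to 4 and CKO 1 to 4, by the genotype and number in their titles. Nothing in the labels states that every sample is a separate mouse, so p-values measure the spread between samples, which may be technical. The study compared the genotypes with each other, and the comparison is read here for genes of excitatory and inhibitory transmission. Cells that do not arise from the Nestin lineage, such as macrophages and fibroblasts, were also in the samples, as their markers show.

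Total counts ran from 14752733 to 17802884 per library. Control 1 stood apart on the first principal component, at -92.7 against 5.14 to 21.5 in the others, and had counts for 18884 genes against 22434 to 23414. Tia1 itself had 24.4 to 41.9 CPM, counts scaled to library size, in control and 23.4 to 32.1 CPM in CKO, and its log2 difference was -0.29 (SE 0.19) with an adjusted p of 1.00 in edgeR's quasi-likelihood test. The groups overlapped in Tia1. Which exons are deleted is not known here, and its gene counts cover every exon. All 16 pan-neuronal, all 12 astrocyte and all 10 oligodendrocyte markers were above the filter on low counts. So were 7 of 8 skeletal muscle, all 7 fibroblast and all 7 Schwann cell markers. These lists do not tell spinal cord from other nervous tissue, so the label of spinal cord was not checked by them.

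Fast transmission in the spinal cord uses glutamate as the excitatory transmitter and GABA and glycine as the inhibitory ones. Excitatory neurons load glutamate into vesicles with the transporters VGLUT1, VGLUT2 and VGLUT3, encoded by Slc17a7, Slc17a6 and Slc17a8. Inhibitory neurons make GABA from glutamate with the decarboxylases GAD67 and GAD65, encoded by Gad1 and Gad2, and load GABA and glycine into vesicles with a shared transporter, VIAAT, encoded by Slc32a1. Glycinergic neurons take up glycine through GlyT2, encoded by Slc6a5, whereas GlyT1 (Slc6a9) and the GABA transporter GAT3 (Slc6a11) are found mainly on astrocytes.

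The stretches before the starts of 4 of these genes are shown, for excitatory and inhibitory vesicle loading, GABA synthesis and GABA uptake, to set the letters before genes of different roles side by side. All 9 genes matched RefSeq's promoter windows on GRCm38.p6, with 14 windows in all. Each stretch below runs 5′ to 3′ on the gene's strand, which is the plus strand for all 4, and holds up to 250 bases that lie before both RefSeq's start and the deposited gene start. Capitals mark matches to the motifs named after the sequences.
Slc17a6, chr7:51621580-51621829, excitatory vesicle loading: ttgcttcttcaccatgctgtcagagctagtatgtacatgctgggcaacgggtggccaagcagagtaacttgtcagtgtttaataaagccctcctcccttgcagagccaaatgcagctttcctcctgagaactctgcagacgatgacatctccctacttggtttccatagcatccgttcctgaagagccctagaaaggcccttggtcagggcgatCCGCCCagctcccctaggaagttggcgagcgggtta
Gad2, chr2:22622077-22622204, GABA synthesis: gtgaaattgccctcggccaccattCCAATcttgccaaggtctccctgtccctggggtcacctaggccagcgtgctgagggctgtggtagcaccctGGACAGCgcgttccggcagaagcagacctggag
Slc32a1, chr2:158610508-158610757, inhibitory vesicle loading: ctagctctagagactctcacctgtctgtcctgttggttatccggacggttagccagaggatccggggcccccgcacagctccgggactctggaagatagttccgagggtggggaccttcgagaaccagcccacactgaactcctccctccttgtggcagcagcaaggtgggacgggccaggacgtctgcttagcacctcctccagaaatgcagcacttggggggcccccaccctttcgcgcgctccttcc
Slc6a11, chr6:114130991-114131240, GABA uptake by astrocytes: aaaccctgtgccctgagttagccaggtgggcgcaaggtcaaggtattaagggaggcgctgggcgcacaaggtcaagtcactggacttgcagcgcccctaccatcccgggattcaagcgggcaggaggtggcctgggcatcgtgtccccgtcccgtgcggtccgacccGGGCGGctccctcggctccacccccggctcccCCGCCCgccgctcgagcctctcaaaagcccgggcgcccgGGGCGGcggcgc

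The motifs were searched on both strands in the 250 bases before each of RefSeq's 32851 starts. They were the GC box GGGCGG, the CCAAT box CCAAT, the TATA box TATAAA, the E-box CAGCTG, the cAMP element core TGACG, and the parts CAGCACC and GGACAGC of RE1, the element of the neuronal gene repressor REST. The GC box was in 32.7% of all windows and in windows of 5 of the 9 genes, and the stretch of Slc6a11 holds 3 of them. The CCAAT box, in 33.9% of all windows, was found for Gad2 only among the 9 genes. GGACAGC, in 5.28% of all windows, was found for Gad2 and Slc6a9, and CAGCACC, in 5.73%, for Slc17a8. The TATA box, in 12.4%, was found for Gad1, the cAMP element core, in 17.8%, for Slc17a6, Gad2, Slc6a5 and Slc6a9, and the E-box, in 13.0%, for none. These counts take every window of a gene, and the cAMP element core lies in none of the 4 stretches shown. The stretch of Slc32a1 holds none of the motifs. Base composition also differed, with 53.2% G and C for Slc17a6, 62.5% for Gad2, 62.4% for Slc32a1 and 71.2% for Slc6a11, against a median of 52.4% over all windows. The value for Gad2 covers only 128 bases, cut at the deposited gene start, whereas the median is over full stretches of 250 bases. A match describes letters and does not show a site in use.

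Levels were compared between genes as FPKM, which the authors scaled by gene length. Slc6a11 of astrocytes was the most abundant of the 9, with 12.6 to 23.5 FPKM over the 8 libraries and a mean of 17.2 ± 3.69 (SD, n = 8), and it was above Slc17a6 in all 8 libraries. Slc17a6 and Slc32a1 followed at means of 7.70 ± 3.20 and 6.37 ± 1.70 FPKM, and Slc17a6 was the higher in only 4 of the 8 libraries, so these neighbours did not differ beyond their spread. Slc6a9, at 5.21 ± 0.91 FPKM, was below Slc32a1 in 7 libraries. Slc6a5 (4.60 ± 1.87) and Gad1 (4.40 ± 1.085) did not part, with the first higher in 5 libraries. Gad2, at 3.55 ± 1.204 FPKM, was below Gad1 in 7 of the 8 libraries. Slc17a8 and Slc17a7 were far lower, at 0.298 ± 0.144 and 0.091 ± 0.071 FPKM.

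**Figure D1:**
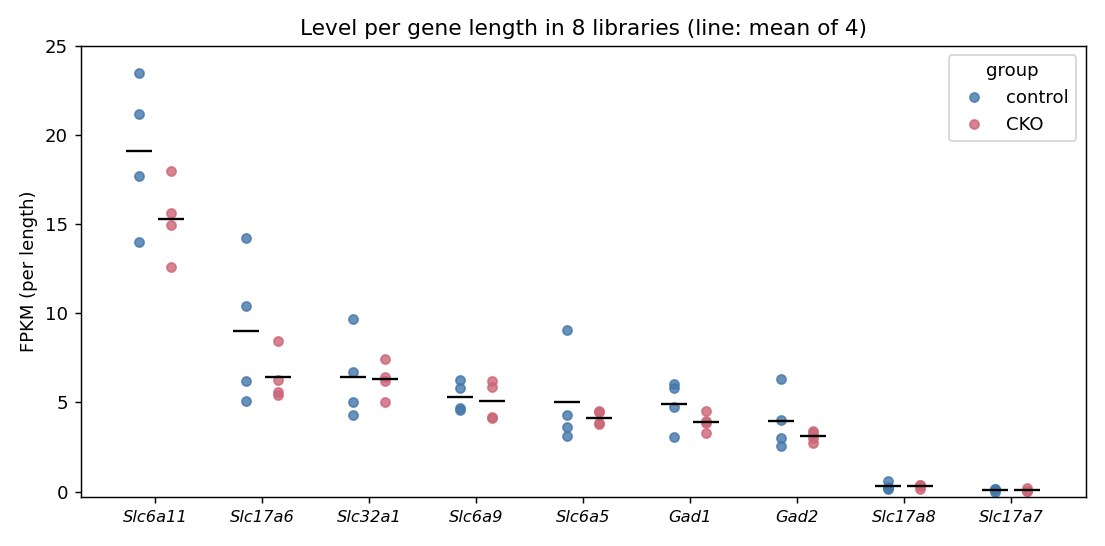
Level of the 9 genes in FPKM, a value per gene length, with a point for each of the 8 libraries, control in blue and CKO in red, and a line at the mean of 4. Slc6a11 lies highest at 12.6 to 23.5 FPKM, and Slc17a7 and Slc17a8 reach at most 0.576 FPKM.

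Among the vesicular glutamate transporters, VGLUT2 took nearly all of the signal. Slc17a6 made up 90.7% to 98.1% of the summed FPKM of the 3 genes, with a median of 94.8%, while Slc17a8 made up 1.03% to 5.92% and Slc17a7 up to 3.44%. The share of Slc17a6 was 95.2% ± 2.02 (SD, n = 4) in control and 94.2% ± 2.64 in CKO.

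Slc17a6 (ENSMUSG00000030500, chromosome 7, 51622006 to 51671119, plus strand, GRCm38) had 57.6, 77.6, 27.4 and 33.8 CPM across control 1 to 4, and 29.6, 46.1, 30.3 and 33.7 CPM across CKO 1 to 4. Control 1 and control 2 were higher than every CKO library, and control 3 was the lowest of all 8, so the groups overlapped. The mitochondrial share of counts was 6.97%, 6.37%, 3.605% and 4.61% in control 1 to 4, and 4.18%, 5.95%, 3.16% and 4.97% in CKO 1 to 4. It was thus also highest in control 1 and control 2 and, within CKO, in CKO 2, and its part in the values of Slc17a6 was not tested. Control averaged 49.1 ± 23.0 CPM (SD, n = 4) and CKO 34.9 ± 7.67 CPM. The difference, CKO minus control, came to -0.49 on the log2 scale (SE 0.30, 95% interval -1.16 to 0.18). That did not pass the threshold, an adjusted p of 0.05, with an adjusted p of 1.00 in edgeR's quasi-likelihood test over all genes. Without control 2 the log2 fold change was -0.18, and without both that and control 1 it was 0.19, in the other direction. In bulk RNA, fewer neurons in a sample and less of a transcript per neuron cannot be told apart.

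Slc17a7 (ENSMUSG00000070570, chromosome 7, 45163949 to 45176142, plus strand) had 0, 12, 16 and 9 counts in control and 20, 4, 5 and 3 counts in CKO. The 0 in control 1 allows up to 3 counts, or 0.21 CPM, by counting error alone. The most counts were in CKO 1 and control 3. This was the only one of the 9 genes below the filter on low counts, so it was not tested in the main comparison. With no filter its log2 fold change was -0.19 (SE 0.81), with an edgeR adjusted p of 1.00. It was -0.58 (SE 0.63) without control 1 and 0.078 (SE 0.89) without CKO 4. Markers of sensory ganglion neurons, which lie outside the cord and are known to use VGLUT1 in part, had their highest summed level in the same 2 libraries. That level was 36.5 CPM in control 3 and 33.9 CPM in CKO 1, while the rest of control held 6.87 to 23.8 CPM and the rest of CKO 8.34 to 15.5 CPM. All 9 of these markers had counts in both libraries, whereas 2 to 6 of the 9 were at 0 in each of the others. Drgx, the other of the 10 markers planned, had no row under that name and is not counted here. The sodium channel gene Scn10a of pain-sensing neurons had 54 and 23 counts there and 0 or 1 in the other libraries, and its relative Scn11a had 34 and 36 counts against 0 to 2. Not every marker followed: Calca, the most abundant of them, had 21.5 and 18.9 CPM there and 22.04 CPM in control 1, and P2rx3 had 1.05 CPM in control 3, below 1.18 and 1.31 CPM in control 1 and control 2. These 4 markers were chosen after their values were seen. Skeletal muscle markers were also high in both, 2.44 and 2.22 log2 units above their mean, and in CKO 3 at 1.89, where Slc17a7 had 5 counts. The part of RNA from outside the cord in the counts of Slc17a7 was not tested.

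Slc17a8 (ENSMUSG00000019935, chromosome 10, 89574020 to 89621253, minus strand) is known from a small set of dorsal horn and sensory neurons. Its counts were 40, 12, 17 and 21 in control and 30, 23, 12 and 33 in CKO, or 0.71 to 2.78 and 0.72 to 1.86 CPM. Control 1 was the highest and control 2 the lowest, the reverse of the position of control 2 for Slc17a6. Its log2 difference was 0.044 (SE 0.49, 95% interval -1.03 to 1.12, edgeR adjusted p = 1.00), an interval wide enough to hold a change of 1 log2 unit either way.

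**Figure D2:**
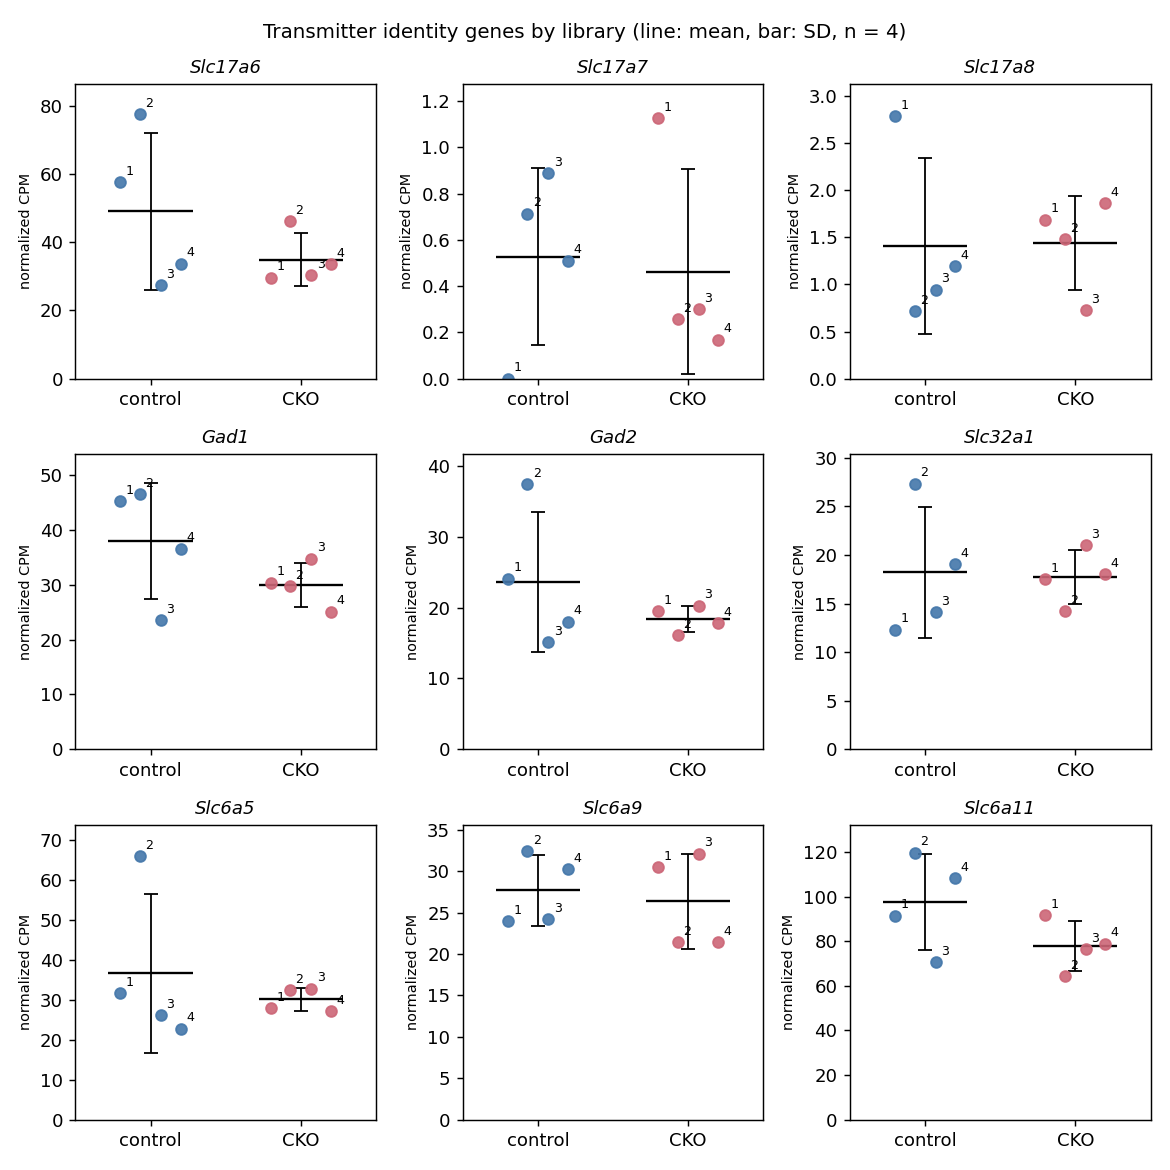
Normalized CPM of each of the 9 genes by group, a point for each library numbered by its replicate, with a line at the mean and a bar for the SD (n = 4). Control 2 is the highest of all 8 for 7 genes, all but Slc17a7 and Slc17a8, and the 2 groups overlap in every panel.

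Both GABA-making enzymes had lower means in CKO, and neither difference passed. Gad1 (ENSMUSG00000070880, chromosome 2, 70553072 to 70602014, plus strand) had 45.3, 46.5, 23.5 and 36.6 CPM across control 1 to 4, and 30.4, 29.7, 34.8 and 25.1 CPM across CKO 1 to 4. As for Slc17a6, control 1 and control 2 were high and control 3 the lowest of the 8. Control averaged 38.0 ± 10.6 CPM (SD, n = 4) and CKO 29.98 ± 3.96 CPM, for a log2 difference of -0.34 (SE 0.21, 95% interval -0.81 to 0.13) that did not pass (adjusted p = 1.00, edgeR).

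Gad2 (ENSMUSG00000026787, chromosome 2, 22622205 to 22693874, plus strand) had 24.1, 37.4, 15.1 and 18.04 CPM across control 1 to 4, and 19.5, 16.1, 20.3 and 17.8 CPM across CKO 1 to 4. Control 2 was 1.55 times the next highest. The means were 23.7 ± 9.92 CPM (SD, n = 4) and 18.4 ± 1.87 CPM, with a log2 fold change of -0.36 (SE 0.26) that did not pass (adjusted p = 1.00, edgeR). Without control 2 it was -0.047, and without control 1 as well it was 0.15. Gad1 was 55.9% ± 5.37 (SD, n = 4) of the summed FPKM of both enzymes in control and 55.5% ± 2.89 in CKO.

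Slc32a1 (ENSMUSG00000037771, chromosome 2, 158610767 to 158615748, plus strand), which all GABA and glycine neurons of the cord need, had nearly equal group means. It had 12.3, 27.3, 14.1 and 19.1 CPM across control 1 to 4, and 17.5, 14.2, 21.03 and 18.04 CPM across CKO 1 to 4. Control 2 was the highest and control 1 the lowest of the 8, although control 1 was among the highest for Slc17a6 and Gad1. Its means of 18.2 ± 6.73 CPM (SD, n = 4) and 17.7 ± 2.78 CPM gave a log2 fold change of -0.040 (SE 0.25, 95% interval -0.59 to 0.51, edgeR adjusted p = 1.00). That value was above 0 without control 2 (0.23) and with the pan-neuronal covariate (0.13).

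Slc6a5 (ENSMUSG00000039728, chromosome 7, 49910146 to 49963856, plus strand) marks the glycinergic neurons. Its values were 31.8, 66.0, 26.1 and 22.8 CPM across control 1 to 4, and 28.003, 32.4, 32.8 and 27.3 CPM across CKO 1 to 4. Control 2 had 2.01 times the next highest value, and the other 7 libraries lay within 22.8 to 32.8 CPM. Control averaged 36.7 ± 19.9 CPM (SD, n = 4) and CKO 30.1 ± 2.89 CPM, and the log2 fold change of -0.28 (SE 0.30) did not pass (adjusted p = 1.00, edgeR). Without control 2 the log2 fold change was 0.17, in the other direction.

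In control, the transporters of astrocytes had the smallest coefficients of variation of the 9 genes, 15.4% for Slc6a9 and 21.9% for Slc6a11. In CKO Slc6a9, at 21.8%, varied more than Slc6a5 (9.60%), Gad2 (10.1%), Gad1 (13.2%) and Slc32a1 (15.7%). Slc6a11 (ENSMUSG00000030307, chromosome 6, 114131241 to 114249952, plus strand) had 91.5, 119.7, 70.6 and 108.4 CPM across control 1 to 4, and 91.7, 64.2, 76.3 and 78.9 CPM across CKO 1 to 4. Control 2 and control 4 were above every CKO library, CKO 1 was level with control 1, and control 3 lay below 3 CKO libraries. Control averaged 97.5 ± 21.4 CPM (SD, n = 4) and CKO 77.8 ± 11.3 CPM, for a log2 fold change of -0.33 (SE 0.18, 95% interval -0.73 to 0.079). Its unadjusted p of 0.104 was the smallest of the 8 genes tested (edgeR adjusted p = 1.00). The sign was below 0 under all 19 alternatives tried, from -0.45 to -0.21. That was also so for Gad1, from -0.51 to -0.0086. The alternatives refit the same libraries or a part of them, so a kept sign is not separate evidence.

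Slc6a9 (ENSMUSG00000028542, chromosome 4, 117834506 to 117875198, plus strand) had 24.0, 32.4, 24.2 and 30.2 CPM across control 1 to 4, and 30.5, 21.4, 32.1 and 21.4 CPM across CKO 1 to 4. High and low values were found in both groups, and the highest was only 1.51 times the lowest. Its log2 difference was -0.071 (SE 0.19, 95% interval -0.49 to 0.34, edgeR adjusted p = 1.00). The gene overlaps B4galt2, a galactosyltransferase gene on the other strand with 241 to 595 counts per library, and no source used here states whether counting used strand, so their reads may not be told apart.

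None of the genes differed between the genotypes beyond the spread of the libraries. Of the 8 genes tested, 0 passed an adjusted p of 0.05 in edgeR's quasi-likelihood test, and 0 of all 16537 genes did (0%). An unadjusted p under 0.05 was reached by 0 of the 8, against 1.42% of all genes (0.496% higher and 0.919% lower in CKO). DESeq2's Wald test and limma-voom also called 0 of them. The groups were apart in 0 of the 8 genes, against 1.19% of all genes (0.49% lower and 0.701% higher in CKO). The mean was lower in CKO for 7 of the 8, all but Slc17a8, and their median log2 difference was -0.30, where 51.9% of all genes were lower and their median was -0.0095. Without control 1, where Slc17a7 passed the filter, 8 of 9 were lower with a median of -0.345. Without control 2, 5 of 8 were lower with a median of -0.11. Without control 1 and control 2, which were left out only once their values were known, Slc17a7 also passed the filter and 4 of 9 were lower with a median of 0.091. Gad1 was then at -0.0086.

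**Figure D3:**
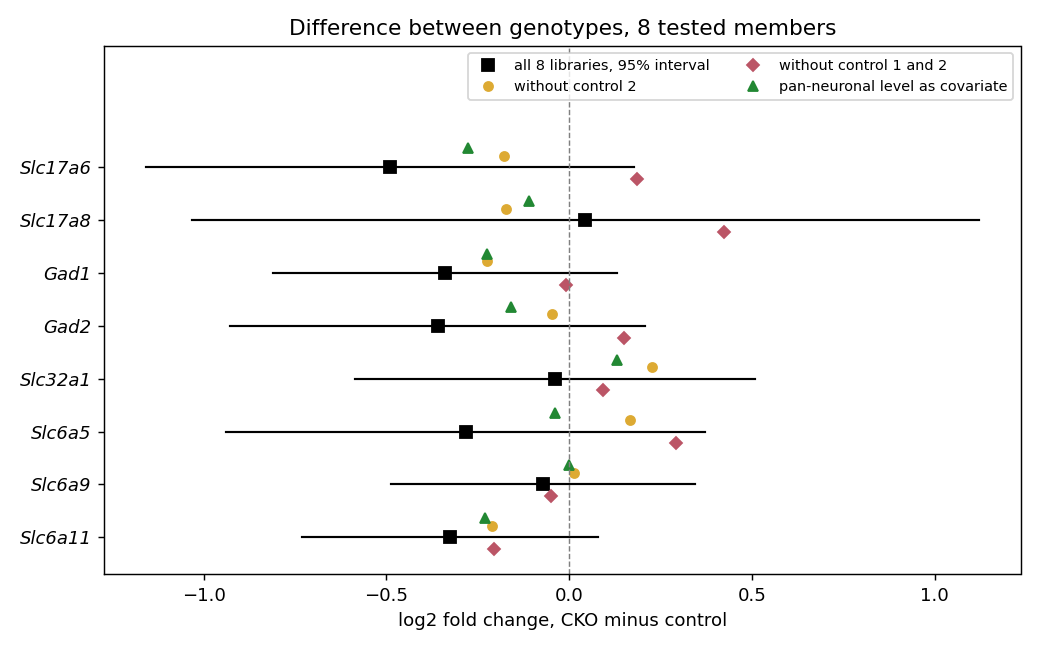
Log2 fold change, CKO minus control, of the 8 tested genes with all libraries (black square, line for the 95% interval), without control 2 (yellow), without control 1 and control 2 (red), and with the pan-neuronal level as a covariate (green). All 8 intervals cross 0, and Slc17a6, Gad2, Slc32a1 and Slc6a5 move from below 0 to above 0 when both libraries are left out.

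Neuronal markers differed between libraries too. The pan-neuronal list of 16 genes, which holds none of the 9, was 0.66 log2 units above its mean in control 2 and -0.40 and -0.35 in control 3 and CKO 4. Its summed level was 2050 to 4866 CPM in control and 2233 to 3113 CPM in CKO. Of its 16 genes 13 were lower in CKO with a median log2 difference of -0.15, where 51.9% of all genes were lower. Without control 1, 15 of 16 were lower with a median of -0.20, and without control 2, 6 of 16 with a median of 0.10. The synaptic gene Snap25 ran from 315 to 939.5 CPM in control and from 358 to 472 CPM in CKO, while Rbfox3, the NeuN gene, had 28.1 ± 8.38 and 26.8 ± 8.51 CPM (SD, n = 4). With the pan-neuronal level as a covariate, the log2 fold changes were -0.28 for Slc17a6, -0.23 for Gad1, -0.16 for Gad2, 0.13 for Slc32a1, -0.039 for Slc6a5 and -0.23 for Slc6a11. None passed with that covariate either, and 7 of the 8 were lower with a median of -0.13. In that fit 50.7% of all genes were lower. The 7 include Slc6a9 at -0.00023 and Slc17a8 at -0.11, which was above 0 in the main fit. The part of neuron content in these differences was not tested beyond this fit.

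The 9 genes did not follow one profile across the 8 libraries. Control 2 had the highest value for 7 of the 9, where it had the highest value for 15.2% of all genes tested. Gad2 and Slc6a5 were the closest of the neuronal genes, with a root mean square difference of 0.21 log2 units after each gene was centred on its mean, followed by Gad1 and Gad2 at 0.22. Slc6a9 and Slc6a11, both of astrocytes, were also 0.22 apart. Each was almost as near to a neuronal gene, with Slc6a9 and Slc32a1 0.24 apart and Slc6a11 and Gad1 0.24 apart. The neuronal genes Gad2 and Slc32a1 were 0.33 apart, so nearness did not follow cell type. Slc17a6 and Slc32a1, the vesicle genes of excitatory and inhibitory neurons, were 0.54 apart, and they parted most in control 1, at 0.55 and -0.50. Slc17a7 and Slc17a8 lay 0.69 or more from every other of the 9, at counts where sampling noise is large. The SD of log2 CPM was larger in control than in CKO for 7 of the 8 tested genes, all but Slc6a9, as it was for 74.9% of all genes. For Slc6a5 the coefficient of variation was 54.2% in control and 9.60% in CKO.

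**Figure D4:**
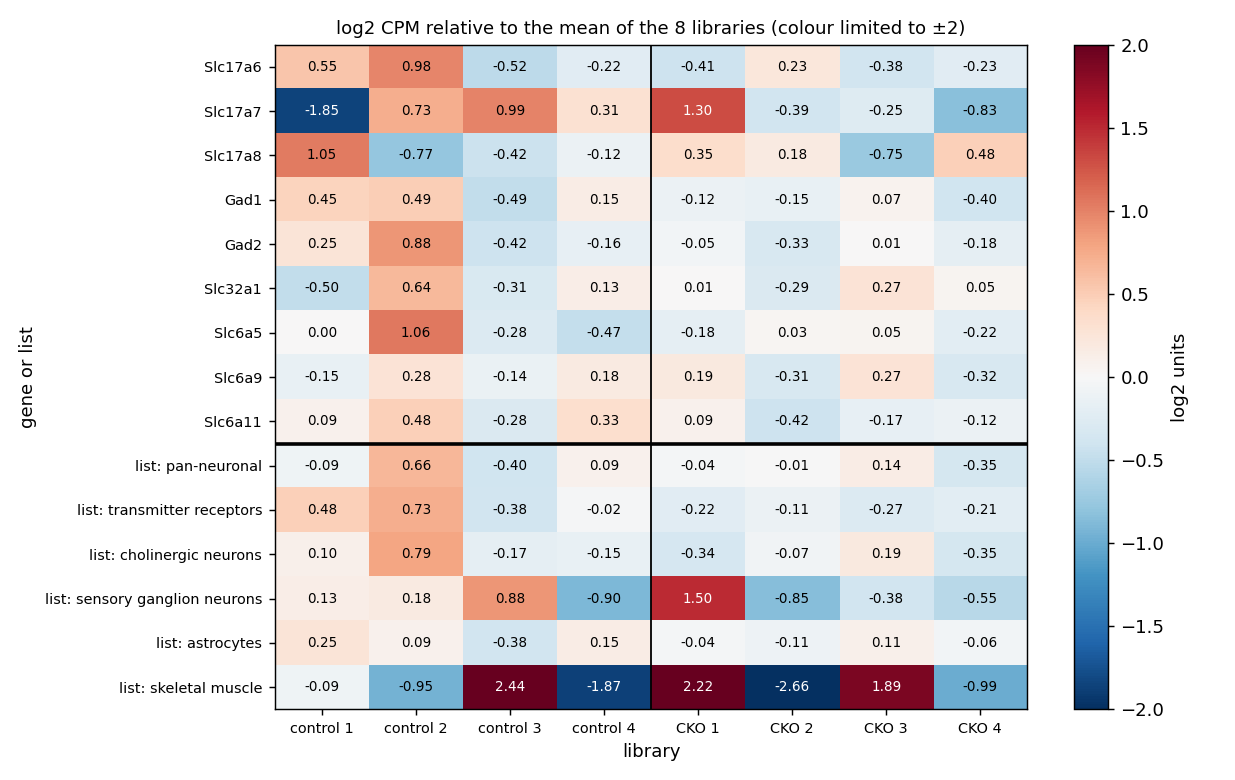
Log2 CPM relative to the mean of the 8 libraries, for the 9 genes (above the line) and the mean of 6 marker lists (below), with libraries in columns and red for higher values. Control 2 is red for the neuronal genes other than Slc17a8 and for the pan-neuronal list at 0.66, and Slc17a7 is highest in control 3 and CKO 1, where the sensory ganglion list is at 0.88 and 1.496.

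Ratios of 2 genes within a library do not depend on the scaling of libraries. Per count of Slc17a6, control 1 to 4 had 0.214, 0.352, 0.514 and 0.565 counts of Slc32a1, and CKO 1 to 4 had 0.592, 0.309, 0.694 and 0.536. The lowest ratios came from control 1 and CKO 2, so the groups overlapped. The log2 ratio was -1.38 ± 0.64 (SD, n = 4) in control and -0.97 ± 0.51 in CKO, a difference of 0.41 with a two-sided exact permutation p of 0.343 over 70 assignments. The design allows a smallest p of 0.029.

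The ratio of the glycinergic marker to the marker of all inhibitory neurons also overlapped. There were 2.58, 2.41, 1.85 and 1.196 counts of Slc6a5 for each of Slc32a1 in control and 1.60, 2.275, 1.56 and 1.51 in CKO, a log2 difference of -0.17 (exact permutation p = 0.600). The ratio of Gad1 to Gad2 was 1.24 to 2.03 in control and 1.41 to 1.85 in CKO, a log2 difference of -0.023 (exact permutation p = 0.886). For Slc17a7 to Slc17a6, where 1 library had a count of 0 and 0.5 counts were added, the log2 difference was 0.585 with an exact permutation p of 0.771. The 4 ratios had a Benjamini-Hochberg adjusted p of 0.886 each.

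**Figure D5:**
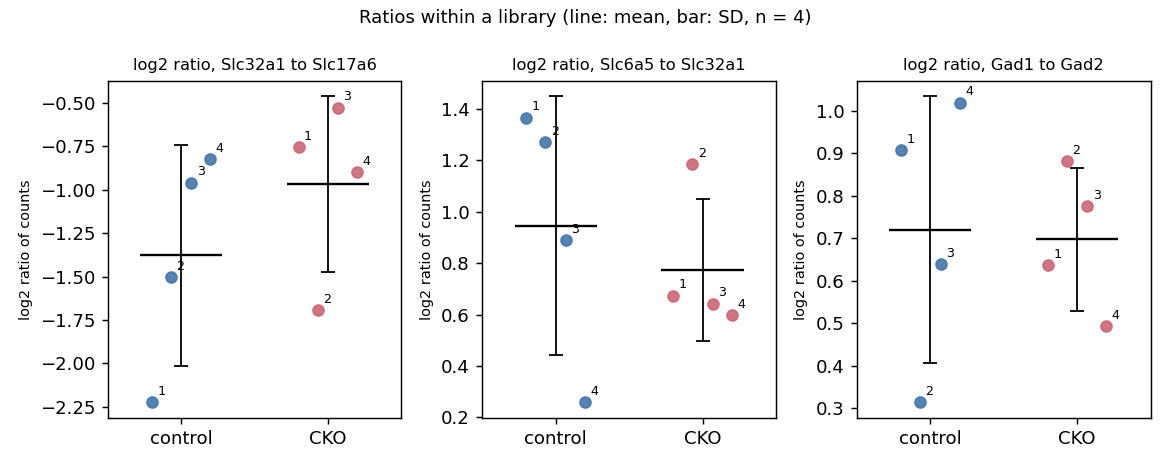
Log2 ratio of the counts of Slc32a1 to Slc17a6, Slc6a5 to Slc32a1 and Gad1 to Gad2, a point for each library numbered by its replicate, with the mean and the SD (n = 4). The control and CKO points overlap in each panel, and control 1 has the lowest ratio of Slc32a1 to Slc17a6, at -2.22.

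Other genes of the same pathways gave no call either. Of the 15 genes of glutamate synthesis and uptake 12 were lower in CKO and 0 passed, and the median log2 difference was -0.14. Without control 2, 9 of 15 were lower with a median of -0.048, and without control 1 and control 2, 8 of 15 with a median of -0.013. The amino acid carriers Slc1a4 and Slc38a1 had log2 fold changes of -0.27 and -0.25, and Glud1, glutamate dehydrogenase, one of -0.15. Of the 8 genes of GABA uptake and breakdown 7 were lower and 0 passed, with a median of -0.071, which was -0.12 without control 1 and -0.13 without control 2. Aldh5a1, which ends GABA breakdown, had 43.7 ± 11.8 CPM (SD, n = 4) under control and 35.3 ± 1.97 CPM under CKO. The taurine carrier Slc6a6 and the betaine and GABA carrier Slc6a12 had log2 fold changes of -0.090 and -0.24. Of the 9 genes of glycine synthesis and cleavage 5 were lower and 0 passed, with a median of -0.020. Without control 2 the median was 0.066, in the other direction, with 4 of 9 lower. Dld and Amt of the cleavage system had log2 fold changes of -0.32 and -0.19, Phgdh of serine synthesis -0.11, and Shmt2, which makes glycine from serine, 0.12.

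The receptor list for glutamate, GABA and glycine, which holds none of the 9, had a median log2 fold change of -0.50. It has 20 genes, of which Gphn (-0.062) encodes a scaffold protein at inhibitory synapses and not a receptor. All 20 had a lower mean in CKO, against 51.9% of all genes, and 0 passed over all genes. An unadjusted p under 0.05 was found for 3, against 1.42% of all genes, and the groups were apart for 0 of them, against 1.19% of all genes. Gria2, an AMPA receptor subunit, fitted at -0.71 (SE 0.25), had means of 31.1 ± 10.2 and 19.0 ± 4.08 CPM (SD, n = 4). Grm5, a metabotropic glutamate receptor, had a log2 fold change of -0.81 (SE 0.32), and the GABA-A receptor subunit Gabra3 one of -0.57 (SE 0.24), each with an edgeR adjusted p of 1.00. Without control 2, 19 of 20 were lower with a median of -0.29, and without control 1 and control 2, 11 of 20 were lower and the median was -0.013. Grm5 was then at -0.16, Gabra3 at -0.11 and Gria2 at -0.32. The median was -0.40 with the pan-neuronal level as a covariate. Whether this list differs from the 9 genes was not tested.

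The transcription factors that specify excitatory and inhibitory spinal neurons in development were measured in part. Of 16 factors of excitatory neurons 10 passed the filter and 7 of them were lower in CKO, and their median was -0.10. Means were 6.19 ± 1.62 and 4.28 ± 0.98 CPM (SD, n = 4) for Lmx1b of dorsal excitatory neurons, and 2.79 ± 0.96 and 3.69 ± 1.34 CPM for Tlx3 of the same neurons, control first. Ebf1 and Rora had log2 fold changes of -0.35 and -0.29. Both were highest in control 1, at 33.6 and 62.9 CPM, where the pan-neuronal list was at -0.088 log2 units. Which cells these transcripts came from was not tested. Of 16 factors of inhibitory neurons 12 passed the filter, 6 higher and 6 lower, with a median of -0.015. Lhx1 had 1.14 ± 0.31 and 0.68 ± 0.36 CPM, Pax8 1.89 ± 0.63 and 2.58 ± 0.75 CPM, Gbx1 2.14 ± 1.03 and 2.86 ± 0.72 CPM, and En1 0.58 ± 0.56 and 0.86 ± 0.29 CPM. None of the tested factors passed.

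Cholinergic neurons, the third transmitter class in the cord, had 3 of 5 tested markers lower and 0 past the threshold, with a median of -0.28. That median was -0.025 without control 2, and without control 1, where 6 markers were tested, all 6 were lower with a median of -0.33. Slc5a7, their choline transporter, had 24.6, 17.4, 5.71 and 6.47 CPM across control 1 to 4, and 3.09, 9.75, 5.42 and 4.90 CPM across CKO 1 to 4, again with control 1 and control 2 highest. Its log2 difference of -1.22 (SE 0.49) had an unadjusted edgeR p of 0.030 (adjusted p = 1.00). That was the only p under 0.05 among the 5 tested markers, against 1.42% of all genes. The difference of Slc5a7 was -0.77 without control 1 and -0.083 without both control 1 and control 2. The vesicular transporter Slc18a3 had a log2 fold change of -0.39 (SE 0.33), Ache one of -0.28 (SE 0.24) and Chat, which makes acetylcholine, 0.071 (SE 0.37). Of the 12 astrocyte markers 8 were lower, with a median of -0.11, and without control 1, 6 were lower with a median of 0.020. Aqp4, the water channel of astrocyte endfeet, had a log2 fold change of -0.59 (SE 0.32) that was -0.15 without control 1, and the gap junction gene Gja1 one of -0.29 (SE 0.17). Fgfr3 had one of -0.28 (SE 0.16), and Aldh1l1, a folate enzyme of astrocytes, one of 0.43 (SE 0.29). Lower means were found for 5 of 10 oligodendrocyte, 6 of 10 microglia and macrophage, 5 of 7 fibroblast and 6 of 7 Schwann cell markers, with 0 past the threshold in each list. Without control 1 these counts were 1, 5, 6 and 4, and without control 2 they were 5, 6, 7 and 6. Without both, 0 of the 10 oligodendrocyte markers were lower, with a median of 0.29. Ncmap, a Schwann cell myelin gene, had a log2 difference of -0.71 (SE 0.20, edgeR adjusted p = 1.00). It was the only gene of all the lists whose groups did not overlap, where the groups were apart for 1.19% of all genes.

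The genes most like each of the 9 across the 8 libraries were found among 12409 others of at least 5 CPM. Nearest to Slc17a6 were AI593442, Hsp90aa1 and the synaptic vesicle gene Sv2b, at root mean square differences of 0.053, 0.098 and 0.12 log2 units. The median of all candidates was 0.56. The nearest were picked as the smallest of all, so their place below the median was set by that choice. Among the nearest to Gad1 were Nos1 and Nxpe3 at 0.083 and 0.085, and nearest to Gad2 were Nrg1, Rab3c and Trim37 at 0.0997 to 0.107. Slc32a1 had Mtmr7, Map1a and the potassium channel gene Kcnc1 at 0.058 to 0.11, and Slc6a5 had Ankrd34b, Kcnab1 and Kctd9 at 0.13 to 0.15. For Slc6a9 they were Ap3m2, Jrk and Tom1l1 at 0.073 to 0.077, and for Slc6a11 Tmem44, Tcea2 and St8sia1 at 0.12 to 0.13. Slc17a8 had G2e3, mt-Nd5 and Cep135 at 0.22 to 0.26. For Slc17a7 the nearest, Snrpf, Prph and Sncg, were no closer than 0.44, and Prph had its highest counts, 436 and 494, in control 3 and CKO 1. Control 2 was nearly level with control 3 for Prph, with 403 counts and 24.0 CPM against 24.2 CPM.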

How the data were processed

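For 54532 mouse genes in 8 libraries the authors deposited raw counts of reads and, beside them, FPKM values. A human build, featureCounts 1.5.0-p3, DESeq2 1.20.0, HISAT2 2.0.5, CASAVA 1.8 and fastp are listed, with no roles, per the submitters' processing notes. Of the 54409 deposited identifiers also in GENCODE M21, 98.3% have the same coordinates on GRCm38, including all 9 genes described. Dividing counts by gene length and a library constant gives each deposited FPKM. Per the labels' protocols, RNA was isolated with TRIzol and libraries made with NEBNext Ultra kits.

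R 4.3.3 and edgeR 4.0.16 were used for counts. The low-count filter was filterByExpr (minimum count 10, minimum total 15), which left 16537 genes. They were scaled by TMM and tested with the quasi-likelihood F test (robust=TRUE, genotype only), with Benjamini-Hochberg adjustment over all genes and a threshold of 0.05. CPM are TMM-normalized. Centred values used log2 CPM with a prior count of 2. Intervals and the limit for a count of 0 (3 counts) cover what the fit or counting alone gives. Ratios were compared by two-sided exact permutation. Medians over list members describe, and no list was tested. Named genes were the 9 members, Tia1, the 4 of smallest p in the lists described, Rbfox3, Snap25, and the 3 nearest profiles per member, of which a few are not reported here; other genes named were chosen after their values were seen. The members and lists were chosen with earlier results of these data known. Same-numbered libraries were not paired by the labels.

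Alternatives were DESeq2 1.42.0 (size factors, Wald test), other filters, each library left out, the replicate block, robust=FALSE, limma 3.58.1 (voom, and trend on log2(FPKM + 1) and log2(FPKM + 0.1)), and the pan-neuronal level as a covariate. Leaving out control 1 and control 2 together was added after the data were seen.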

Additional observations from a re-analysis of the deposited data

Results flagged for a closer look

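Values that lay far from the others of their group of 4 were looked for in the CPM of the 9 genes and in the 4 ratios, 26 groups in all, of which chance flags about 1 in 20. For Slc17a7 the library labelled CKO 1, at 1.12 CPM against 0.17 to 0.30 CPM in the other CKO libraries, had a gap of 0.862 of the group's range. For the log2 ratio of Slc6a5 to Slc32a1 the library labelled CKO 2, at 1.18 against 0.60 to 0.67 in the other CKO libraries, had a gap of 0.868 of the range. Both gaps exceed Dixon's 95% critical value for 4 samples.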

How the results depend on the processing

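None of the 8 tested genes passed under the 19 alternatives tried, nor did Slc17a7 in the 8 of them that gave it a value, with adjusted p from 0.757 to 1.00 over the tested genes. Of 152 values of these genes, 131 kept their direction and 21 did not. DESeq2's Wald test called 1 gene of the whole table, the acute-phase gene Saa3 (adjusted p = 0.021), and none of the 9, and the other fits called 0. With no low-count filter 755 of 28894 genes had an unadjusted p under 0.05, against 234 of 16537 in the main fit. Without control 3, 3 of the 8 genes were at that level, against 1104 of all 16823 genes in that fit. They were Slc17a6, Gad1 and Slc6a11, with unadjusted edgeR p of 0.027, 0.011 and 0.023 and none past the adjustment.

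With each library left out in turn, log2 fold changes ran from -0.68 to -0.18 for Slc17a6, -0.51 to -0.23 for Gad1, -0.52 to -0.047 for Gad2, -0.45 to -0.21 for Slc6a11, -0.17 to 0.60 for Slc17a8, -0.19 to 0.23 for Slc32a1, -0.45 to 0.17 for Slc6a5 and -0.18 to 0.018 for Slc6a9. Differences in log2 ratio then ran from 0.13 to 0.65 for Slc32a1 to Slc17a6, -0.40 to -0.032 for Slc6a5 to Slc32a1, -0.16 to 0.077 for Gad1 to Gad2 and -0.62 to 1.31 for Slc17a7 to Slc17a6.

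The direction turned without control 1 and control 2 for Slc17a6 (0.19), Gad2 (0.15), Slc32a1 (0.091) and Slc6a5 (0.29), and with the pan-neuronal covariate for Slc17a8 (-0.11) and Slc32a1 (0.13). For Slc32a1 it also turned with limma-voom (0.012), limma-trend on log2(FPKM + 1) (0.013) and on log2(FPKM + 0.1) (0.022), and the replicate block (0.020). The cause was not tested. The replicate block left 140 of 16537 genes at an unadjusted p under 0.05 and 0 past the adjustment. The same-numbered libraries' deviations had correlations across genes from -0.33 to 0.052. These gave no sign that the numbers pair the samples, but 4 libraries per group cannot exclude a pairing. Slc17a7 was below the filter in the main fit, and in those 8 alternatives its log2 fold change ran from -0.59 without control 1 and control 2 to 0.078 without CKO 4. Its ratio has no value from FPKM because 1 library is at 0. Counts of 0 to 40 for Slc17a7 and Slc17a8 limit what can be detected for these genes at this depth.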
